A study of Homo sapiens with 12 samples.

Results

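The 10 genes described here form a set of pluripotency genes that was named by symbol: POU5F1, NANOG, SOX2, LIN28A, LIN28B, DPPA4, DNMT3B, ZFP42, SALL4 and L1TD1. Each symbol was looked up in the deposited gene tables, and all 10 were found among the 19040 genes that had values. The set was drawn up with earlier results of these data known. The study followed H9, an established human embryonic stem cell line, through directed differentiation to heart cells, in 12 bulk RNA libraries of total RNA isolated with Trizol. Every group used this line and the same differentiation, and the groups differed in day and in what the medium held. At each of day 8 and day 12 there were 2 libraries with DMSO (the vehicle), 2 with F-53B at 60 µM and 2 with PFOS at 60 µM, and both compounds were present from day 0 on. Undifferentiated cells were not analysed here, so the levels below have no starting point from the stem cell state, and the dose was the same in all treated groups. Whether replicate libraries came from separate cultures is not stated in the labels. The p-values therefore reflect only the spread between the libraries at hand, and that spread may be technical.

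Pluripotency is the capacity of a cell to form every tissue of the embryo. In human embryonic stem cells it is held by a circuit in which the transcription factors POU5F1 (OCT4), SOX2 and NANOG activate each other and many other genes. Around that circuit sit SALL4, a zinc-finger transcription factor, ZFP42 (REX1), a zinc-finger protein used as a marker of undifferentiated cells, DPPA4, a chromatin-associated protein, and L1TD1, an RNA-binding protein derived from a LINE-1 element. DNMT3B adds new methyl groups to DNA in early embryonic cells, and LIN28A and LIN28B are RNA-binding proteins that block the maturation of let-7, a microRNA family that accompanies differentiation. Embryonic stem cells are known to switch most of these genes down as they leave the pluripotent state, but at different speeds, and several also act in embryonic tissues.

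The members differed widely in level, as measured in FPKM (fragments per kilobase of transcript, scaled to library size, a unit that adjusts for gene length so that genes can be set beside each other). LIN28A had the highest median over the 12 libraries, 40.6 FPKM, with a range of 11.3 to 84.1 FPKM. DPPA4 followed with a median of 29.7 FPKM, DNMT3B with 14.9, ZFP42 with 13.0, LIN28B with 12.6 and SALL4 with 12.2 FPKM. The lowest were L1TD1 at 6.50, POU5F1 at 2.84, NANOG at 1.05 and SOX2 at 0.07 FPKM. Of the 10 genes, 8 reached 1 FPKM in all 12 libraries, NANOG did so in 7, and SOX2 in none.

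Over all genes, FPKM totals per library ran from 389249 to 439918, and the Pearson r of replicate libraries across genes was lowest for day 12 F-53B at 0.989 and highest at 0.997. The 11 cardiomyocyte markers, such as TNNT2 and MYH6, were present as the labels say, with summed levels of 11990 to 12090 FPKM in the 2 DMSO libraries of day 12. With F-53B that sum was 1288 to 2943 FPKM at day 12, and at day 8 it was 1249 to 1311 FPKM against 6809 to 8886 FPKM in DMSO. With PFOS it was 10410 to 11190 FPKM at day 12 and 3861 to 5992 FPKM at day 8. The 8 epicardial and mesothelial markers summed to 728 to 929 FPKM in the day 12 F-53B libraries and to 202 to 206 FPKM in DMSO. So the libraries differed in markers of cell type between treatments, and the part this plays in the member results below was not tested. In such bulk samples, fewer cells of a type and less RNA per cell cannot be told apart.

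**Figure D1:**
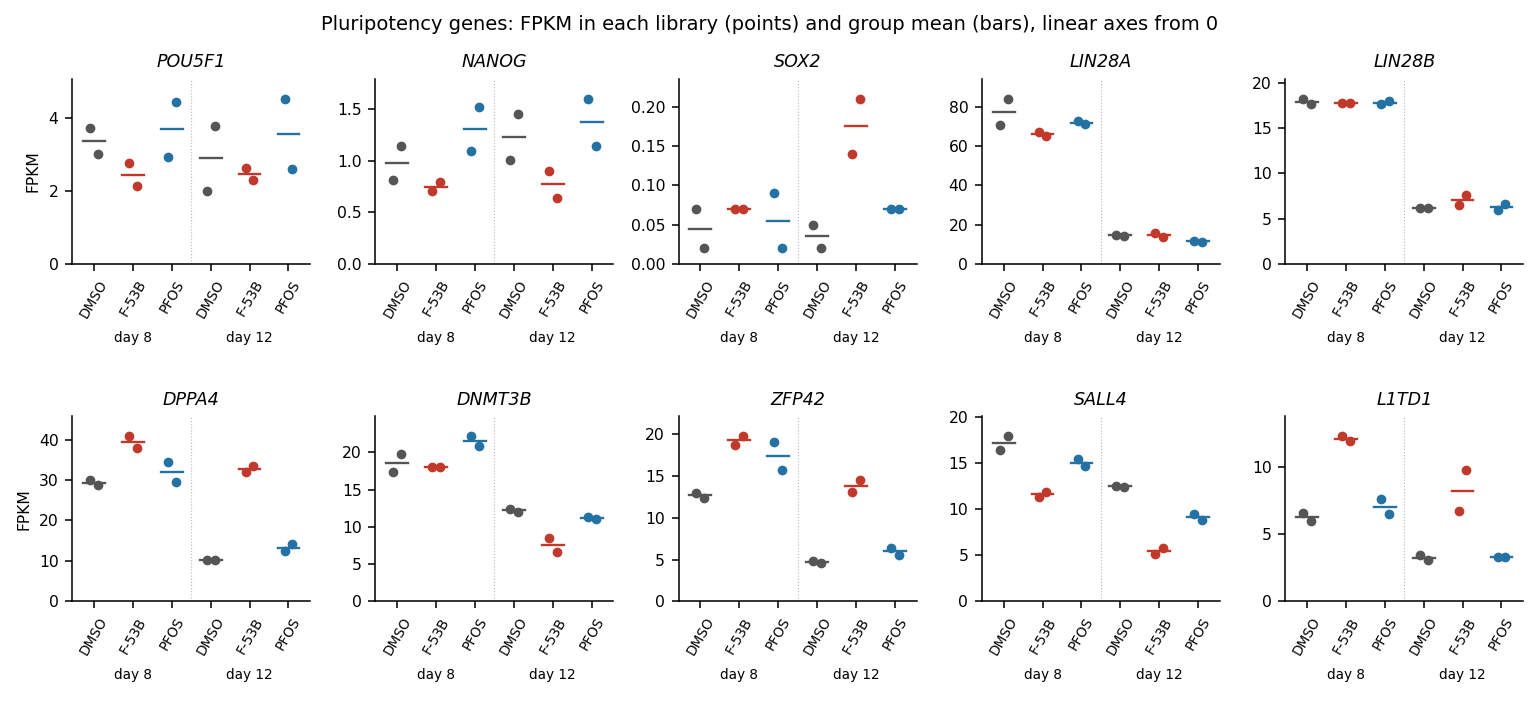
FPKM of each of the 10 genes on linear axes that start at 0 and differ in scale between panels. Points are single libraries, 2 in each of the 6 groups, and bars are group means. LIN28A and LIN28B drop from day 8 to day 12 in every treatment, and DPPA4, ZFP42 and L1TD1 stay higher with F-53B at day 12 than with DMSO. By their axis values, POU5F1, NANOG and SOX2 have the lowest medians of the 10 genes.

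POU5F1, NANOG and SOX2, the 3 factors of the core circuit, were low in every group. In the test used for all genes, neither POU5F1 nor NANOG was called changed by F-53B or by PFOS against DMSO at either day. That is 0 of 2 genes at an adjusted and 0 of 2 at an unadjusted p under 0.05. Over all genes tested, 44% were called with F-53B and 6.77% with PFOS at day 8, and 56.2% and 12.3% at day 12. With only 2 genes, such a count says little about the core factors. The test used for all genes was limma on log2(FPKM + 1), fitted to all 12 libraries and to the 14080 genes that reached 1 FPKM in 2 or more libraries. A gene is called when its 2-sided p, adjusted by the Benjamini-Hochberg method over those genes, is under 0.05, and log2 changes below are on the log2(FPKM + 1) scale, which understates changes of low genes. POU5F1, at chr6:31164337-31180731 on the minus strand (gene positions are from GENCODE 29 on GRCh38), and NANOG, at chr12:7787794-7799141 on the plus strand, were both among the 9 members tested. SOX2, at chr3:181711924-181714436 on the plus strand, fell under the filter.

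POU5F1 measured 3.73 and 3.01 FPKM in the day 8 DMSO libraries, 2.76 and 2.12 with F-53B, and 2.92 and 4.44 with PFOS. At day 12 it measured 2 and 3.77 FPKM with DMSO, 2.62 and 2.31 with F-53B, and 4.52 and 2.61 with PFOS. The F-53B libraries were the lowest at day 8 and lay inside the DMSO range at day 12. Every neighbouring pair of groups in the order of levels overlapped, and the 2 day 12 DMSO libraries alone differed by 1.89-fold. The largest POU5F1 difference from DMSO was a log2 change of -0.35 (SE 0.26, limma adjusted p = 0.299) with F-53B at day 8. Its 95% interval of -0.92 to 0.22 includes the log2 change of -0.52 that SALL4 shows below in the same comparison.

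NANOG measured 0.81 and 1.14 FPKM with DMSO, 0.71 and 0.79 with F-53B, and 1.09 and 1.52 with PFOS at day 8. At day 12 the values were 1.01 and 1.45 FPKM with DMSO, 0.90 and 0.64 with F-53B, and 1.60 and 1.14 with PFOS. The F-53B libraries were again the lowest of each day, and they did not overlap DMSO at day 8 or at day 12. The log2 change with F-53B at day 12 was -0.33 (SE 0.16), with a limma adjusted p of 0.0923. Processed copies of POU5F1 and NANOG lie elsewhere in the genome and can exchange reads with the parent genes, so these low levels are less certain than those of the other members.

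SOX2 was listed between 0.02 and 0.21 FPKM, and each of its 12 values was a whole multiple, from 1 to 9, of a step of 0.0228 to 0.0237 FPKM after rounding to the 2 decimals deposited. At day 12 it stood at 0.14 and 0.21 FPKM with F-53B, against 0.05 and 0.02 with DMSO and 0.07 and 0.07 with PFOS. At day 8 the values were 0.07 and 0.02 FPKM with DMSO, 0.07 and 0.07 with F-53B, and 0.09 and 0.02 with PFOS. The day 12 F-53B libraries were the highest of the 12, at 6 and 9 of those steps where the others held 1 to 4. Without the filter on low values, when all 19040 genes were tested, SOX2 differed from DMSO by 0.18 on the log2 scale at day 12 with F-53B (limma adjusted p = 0.00996). That value rests on a few steps per library and moves SOX2 by far less than 1 FPKM.

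Over time, neither POU5F1 nor NANOG passed the test in any of the 3 treatments. Of all genes tested, 37.7% changed with DMSO, 30% with F-53B and 39.2% with PFOS. POU5F1 had 85.6% of its day 8 mean left at day 12 with DMSO, 101% with F-53B and 96.9% with PFOS. For NANOG the day 12 level was 126% of the day 8 level with DMSO, 103% with F-53B and 105% with PFOS. These ratios lie within the spread between replicate libraries.

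LIN28A and LIN28B fell strongly between day 8 and day 12, and they did so under DMSO, F-53B and PFOS alike in direction. LIN28A, at chr1:26410778-26429722 on the plus strand, measured 70.5 and 84.1 FPKM in the day 8 DMSO libraries and 14.6 and 14.5 FPKM at day 12. With F-53B it went from 67.1 and 65.3 FPKM to 15.9 and 13.5 FPKM, and with PFOS from 72.5 and 71.1 FPKM to 11.9 and 11.3 FPKM. All 6 day 12 libraries lay below all 6 day 8 libraries. The log2 changes were -2.33 with DMSO, -2.10 with F-53B and -2.54 with PFOS (SE 0.09 each), with limma adjusted p-values of 3.74e-08, 2.95e-07 and 6.27e-08. These are losses of 5.33-fold, 4.51-fold and 6.21-fold between group means.

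LIN28B, the paralog at chr6:104936616-105083332 on the plus strand, measured 18.3 and 17.6 FPKM with DMSO at day 8 and 6.18 and 6.19 FPKM at day 12. With F-53B it measured 17.8 and 17.8 FPKM and then 6.47 and 7.65 FPKM, and with PFOS 17.7 and 18.0 FPKM and then 5.93 and 6.59 FPKM. The day 8 libraries were nearly level across treatments, and none overlapped a day 12 library. The log2 change with DMSO was -1.40 (SE 0.08, limma adjusted p = 4.91e-07), a loss of 2.90-fold, and it was -1.23 with F-53B and -1.38 with PFOS.

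The compounds moved this pair little compared with time. With F-53B at day 8, LIN28A was lower by 0.22 on the log2 scale (SE 0.09, limma adjusted p = 0.0829) and did not pass, although its libraries did not overlap DMSO. At day 12 the LIN28A change with F-53B was 0.01, with an interval of -0.19 to 0.22, and with PFOS it was -0.30 (SE 0.09, limma adjusted p = 0.0564). The PFOS value lies at the threshold: it passed with a pseudocount of 0.1 and after either rescaling of the libraries, with adjusted p-values over its alternatives between 0.0282 and 0.221. For LIN28B at day 12, the change was 0.16 with F-53B and 0.01 with PFOS, and neither passed.

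Other genes of the LIN28 and let-7 axis were counted from a list of 17, which holds regulators of let-7 and textbook let-7 targets and leaves out the LIN28 pair. Of these, 10 fell and 2 rose from day 8 to day 12 with DMSO, where 37.7% of all genes tested changed (19.5% higher, 18.2% lower). The list median was -0.28 on the log2 scale against 0.03 for all genes tested. ARID3B, a DNA-binding protein and let-7 target, fell by 1.14 (SE 0.09) and NR6A1, a nuclear receptor, fell by 0.996 (SE 0.09) on the log2 scale. MYCN, a growth-promoting transcription factor, went the other way, from 13.4 and 12.6 FPKM to 32.5 and 33.6 FPKM, a log2 change of 1.28 (SE 0.12, limma adjusted p = 8.35e-06). With F-53B against DMSO at day 12, 4 of the 17 were higher and 5 lower, a share near that of all genes tested, of which 56.2% passed (28.2% higher, 28% lower). TRIM71, a ubiquitin ligase and RNA-binding protein of stem cells, was lower by 1.18 on the log2 scale (SE 0.09), and HMGA2, a chromatin protein and textbook let-7 target, was higher by 1.29 (SE 0.14). HMGA2 was also higher with PFOS at that day, by 1.01 (SE 0.14, limma adjusted p = 0.00118), and PLAGL2, a zinc-finger factor, was lower by 0.37 (SE 0.08). Those 2 of the 17 passed with PFOS at day 12, a share near the 12.3% of all genes tested (6.67% higher, 5.62% lower). With FPKM totals made equal, a further gene of the list passed as lower.

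DPPA4, ZFP42 and L1TD1 were the members that were higher with F-53B than with DMSO at both days. The windows around their transcription starts, 250 bases before and 50 after, are shown here because these 3 genes moved together with F-53B. They are taken from RefSeq on GRCh38.p14, 5′ to 3′ on the strand of the gene, with every CpG dinucleotide (the site that DNA methyltransferases such as DNMT3B act on) in capitals. In that promoter table, 7 of the 10 members were matched by gene ID, NANOG, SOX2, LIN28B and DNMT3B being the others. LIN28B was matched to more than a single window. The DNMT3B window (chr20:32779602-32779901) lies inside the gene, downstream of its GENCODE start at 32762385. The DPPA4 window is chr3:109337497-109337796 (minus strand), the ZFP42 window chr4:187995521-187995820 (plus strand) and the L1TD1 window chr1:62194599-62194898 (plus strand).
DPPA4: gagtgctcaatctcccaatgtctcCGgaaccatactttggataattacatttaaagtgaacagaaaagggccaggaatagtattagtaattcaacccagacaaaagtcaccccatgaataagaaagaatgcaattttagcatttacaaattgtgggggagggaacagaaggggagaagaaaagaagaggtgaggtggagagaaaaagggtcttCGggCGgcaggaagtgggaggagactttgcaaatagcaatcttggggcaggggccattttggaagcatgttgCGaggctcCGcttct
ZFP42: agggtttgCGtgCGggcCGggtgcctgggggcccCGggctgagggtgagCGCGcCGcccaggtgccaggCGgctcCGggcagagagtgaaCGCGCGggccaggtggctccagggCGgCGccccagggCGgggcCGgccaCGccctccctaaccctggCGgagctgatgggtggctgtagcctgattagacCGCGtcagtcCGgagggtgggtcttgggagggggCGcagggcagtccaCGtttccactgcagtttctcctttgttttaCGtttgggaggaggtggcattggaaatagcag
L1TD1: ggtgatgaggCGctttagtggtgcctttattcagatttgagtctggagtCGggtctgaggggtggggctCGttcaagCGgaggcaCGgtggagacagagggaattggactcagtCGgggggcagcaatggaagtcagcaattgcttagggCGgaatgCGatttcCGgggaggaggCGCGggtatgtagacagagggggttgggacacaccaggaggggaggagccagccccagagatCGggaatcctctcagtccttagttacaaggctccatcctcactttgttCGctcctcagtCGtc
The 3 windows are unlike in CpG content: DPPA4 has 5, ZFP42 has 24 and L1TD1 has 14, where the median of all 35116 windows in the table is 14 (quartiles 4 and 28). Short sequence motifs were searched on both strands of each window. All 3 hold the letters CCAAT, which 34.6% of all windows hold, and the GC-box GGGCGG, which 45% hold. The letters ACAAAG, a core recognised by SOX proteins, occur in ZFP42 and L1TD1 and in 16.1% of all windows. The octamer ATGCAAAT, the textbook site of POU factors such as POU5F1, occurs in none of the matched members' windows and in 1.77% of all windows, and the E-box CACGTG (7.26% of windows) and TATAAA (11.5%) occur in none of these 3. A match or its absence describes these letters in this window only.

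DPPA4, at chr3:109326141-109337572 on the minus strand, measured 29.9 and 28.8 FPKM with DMSO at day 8 and 10.1 and 10.2 FPKM at day 12. With F-53B it measured 40.8 and 37.9 FPKM at day 8 and 31.9 and 33.4 FPKM at day 12. With PFOS it measured 34.5 and 29.4 FPKM at day 8 and 12.4 and 14.1 FPKM at day 12. The day 12 F-53B libraries stood above all day 8 DMSO libraries, whereas the other day 12 libraries had lost most of the signal. Against DMSO, F-53B gave a log2 change of 0.41 at day 8 (SE 0.09, limma adjusted p = 0.0032) and of 1.59 at day 12 (SE 0.09, limma adjusted p = 1.28e-07), a 3.22-fold difference between means. From day 8 to day 12, DPPA4 fell by 1.45 on the log2 scale with DMSO and by 1.21 with PFOS, but by 0.26 with F-53B (SE 0.09, limma adjusted p = 0.0434). That last call was lost in 6 of its 10 alternatives, among them the removal of any of its 4 libraries, and the adjusted p then reached 0.231.

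ZFP42, at chr4:187995771-188005050 on the plus strand, measured 13.0 and 12.4 FPKM with DMSO at day 8 and 4.89 and 4.57 FPKM at day 12. With F-53B the values were 18.8 and 19.8 FPKM at day 8 and 13.1 and 14.5 FPKM at day 12. With PFOS they were 19.1 and 15.7 FPKM at day 8 and 6.38 and 5.57 FPKM at day 12. ZFP42 was thus at its day 8 DMSO level or above it in the day 12 F-53B libraries, and its groups did not overlap between F-53B and DMSO at either day. The log2 change with F-53B was 0.57 at day 8 (SE 0.10, limma adjusted p = 0.000872) and 1.37 at day 12 (SE 0.10, limma adjusted p = 7.76e-07), or 2.92-fold. With PFOS at day 8 it was 0.42 (SE 0.10, limma adjusted p = 0.028). The PFOS call was lost when only the libraries compared were fitted and without day 8 DMSO replicate 1, day 8 DMSO replicate 2 or day 8 PFOS replicate 1, with adjusted p-values up to 0.253.

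L1TD1, at chr1:62194831-62212328 on the plus strand, measured 6.52 and 5.95 FPKM with DMSO at day 8 and 3.43 and 3.08 FPKM at day 12. With F-53B it measured 12.3 and 11.9 FPKM at day 8 and 6.71 and 9.72 FPKM at day 12. With PFOS it measured 7.57 and 6.47 FPKM at day 8 and 3.29 and 3.29 FPKM at day 12. The F-53B libraries were the highest on each day and did not overlap DMSO, while PFOS lay beside DMSO. The log2 change with F-53B was 0.85 at day 8 (SE 0.14, limma adjusted p = 0.000451) and 1.10 at day 12 (SE 0.14, limma adjusted p = 3.66e-05). The 2 day 12 F-53B libraries differed from each other by 1.45-fold, more than the replicates of any other L1TD1 group. From day 8 to day 12 with F-53B, L1TD1 fell by 0.52 (SE 0.14, limma adjusted p = 0.0124). That call was lost when only the libraries compared were fitted and without day 8 F-53B replicate 1, day 8 F-53B replicate 2 or day 12 F-53B replicate 1, with adjusted p-values up to 0.11.

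SALL4 and DNMT3B went the other way and were lower with F-53B. SALL4, at chr20:51782331-51802520 on the minus strand, measured 16.4 and 17.9 FPKM with DMSO at day 8, 11.3 and 11.9 FPKM with F-53B and 15.4 and 14.7 FPKM with PFOS. At day 12 it measured 12.5 and 12.4 FPKM with DMSO, 5.19 and 5.79 FPKM with F-53B and 9.5 and 8.82 FPKM with PFOS. The F-53B libraries were the lowest of each day, PFOS lay between them and DMSO, and none of these groups overlapped. The log2 change with F-53B was -0.52 at day 8 (SE 0.08, limma adjusted p = 0.000368) and -1.05 at day 12 (SE 0.08, limma adjusted p = 9.88e-07), leaving 44.0% of the DMSO mean. With PFOS at day 12 SALL4 was lower by 0.41 on the log2 scale (SE 0.08, limma adjusted p = 0.00729), a call that was lost without either day 12 DMSO replicate (adjusted p up to 0.0608).

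DNMT3B, at chr20:32762385-32809356 on the plus strand, measured 17.4 and 19.8 FPKM with DMSO at day 8, 18.04 and 18.05 FPKM with F-53B and 22.2 and 20.9 FPKM with PFOS. At day 12 it measured 12.4 and 12.0 FPKM with DMSO, 8.46 and 6.62 FPKM with F-53B and 11.3 and 11.1 FPKM with PFOS. At day 8 the F-53B libraries fell within the DMSO range, and at day 12 both lay below every other library. The log2 change with F-53B was -0.04 at day 8 (SE 0.10, limma adjusted p = 0.784) and -0.64 at day 12 (SE 0.10, limma adjusted p = 0.000222). At day 12 DNMT3B thus changed in the opposite direction to DPPA4, ZFP42 and L1TD1.

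Relatives of these genes by name were counted next. Of the 7 paralogs tested (DNMT1, DNMT3A, DPPA2, SALL1, SALL2, SALL3 and SOX3), 2 were higher and 2 lower with F-53B at day 12, again near the 56.2% of all genes. SALL1 and SALL2 are zinc-finger factors of the SALL family. SALL1 went from 9.97 and 9.03 FPKM with DMSO to 4.79 and 3.03 FPKM with F-53B at day 12, a log2 change of -1.12 (SE 0.16, limma adjusted p = 0.000113). SALL2 went from 19.3 and 20.0 FPKM to 29.2 and 31.9 FPKM, a change of 0.61 (SE 0.08, limma adjusted p = 4.21e-05). Among 7 other tested genes of DNA methylation, 4 were higher and 1 lower with F-53B at day 12, against the same 56.2%. TET3, a dioxygenase that oxidises methylated cytosine, was higher by 1.31 (SE 0.10), and TET1 of the same family was lower by 0.70 (SE 0.15). DNMT3A, the other de novo methyltransferase, was higher by 0.35 (SE 0.10, limma adjusted p = 0.00778). With PFOS at day 12, TET3 was the gene of that list that passed, 1 of 7, near the 12.3% of all genes tested. It was higher by 0.37 (SE 0.10, limma adjusted p = 0.0369), and with equal FPKM totals it did not pass.

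Counted over the set against DMSO, F-53B at day 8 gave 3 members higher (DPPA4, ZFP42 and L1TD1) and 1 lower (SALL4) of 9 tested, where 44% of all genes tested passed in either direction (23.5% higher, 20.5% lower). PFOS at day 8 gave 1 higher (ZFP42), against 6.77% of all genes (3.69% higher, 3.08% lower). At day 12, F-53B gave 3 higher and 2 lower (DNMT3B and SALL4), against 56.2% of all genes (28.2% higher, 28% lower). PFOS at day 12 gave 1 higher (DPPA4) and 1 lower (SALL4), against 12.3% (6.67% higher, 5.62% lower). The members' share with F-53B was thus near that of all genes on both days. The median log2 change over the 9 members with F-53B was -0.04 at day 8 and 0.01 at day 12, beside 0.02 and 0.00 over all genes, since members moved in opposite directions. For DPPA4 with PFOS at day 12 (0.35, SE 0.09, limma adjusted p = 0.0252), the call was lost without either day 12 DMSO replicate or day 12 PFOS replicate 2 (adjusted p up to 0.138).

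**Figure D2:**
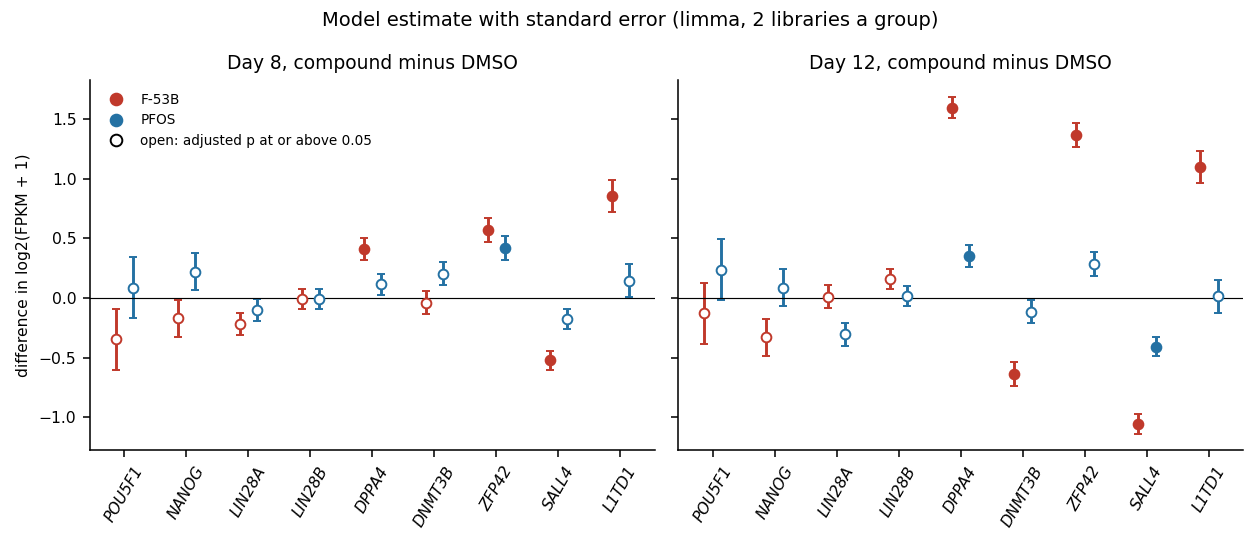
Difference in log2(FPKM + 1) between each compound and DMSO at day 8 (left) and day 12 (right) for the 9 tested genes, from the limma model of all 12 libraries. Points are estimates, bars are 1 standard error, and filled points passed at an adjusted p under 0.05. With F-53B at day 12, DPPA4, ZFP42 and L1TD1 lie between 1.10 and 1.59 and SALL4 lies at -1.05, and for these 4 genes the PFOS points lie closer to 0.

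Between day 8 and day 12, 7 of the 9 tested members fell with DMSO and none rose, where 37.7% of all genes tested changed (19.5% higher, 18.2% lower). The same count, 7 lower and none higher, was found with F-53B, where 30% of all genes changed (16% higher, 14% lower), and with PFOS, where 39.2% changed (19.7% higher, 19.6% lower). The 7 were LIN28A, LIN28B, DPPA4, DNMT3B, ZFP42, SALL4 and L1TD1 in each treatment. With F-53B the count is less firm, since the calls of DPPA4 and L1TD1 were lost in several alternatives, as given above. The median change of the members was -0.77 with DMSO, -0.52 with F-53B and -0.90 with PFOS, beside 0.03, 0.02 and 0.01 over all genes. These comparisons use the same 12 libraries as those against DMSO, so they are not separate measurements. Cell cycle genes fell over the same days: 9 of 10, such as CDK1 and AURKB, were lower at day 12 with DMSO, 10 of 10 with F-53B and 10 of 10 with PFOS, where 18.2%, 14% and 19.6% of all genes were lower.

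What was left at day 12 differed by gene and treatment. DPPA4 kept 34.5% of its day 8 mean with DMSO, 82.9% with F-53B and 41.4% with PFOS. ZFP42 kept 37.3%, 71.7% and 34.4% in the same order. L1TD1 kept 52.2%, 68.1% and 46.9%. For these 3 genes the share kept was highest with F-53B. SALL4 kept 72.8% with DMSO, 47.2% with F-53B and 60.8% with PFOS, and DNMT3B kept 65.7%, 41.8% and 52.0%. For these 2 the share kept was lowest with F-53B. LIN28A kept 18.8%, 22.2% and 16.1%, and LIN28B kept 34.5%, 39.7% and 35.1%, so the pair lost most of its signal under each treatment.

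Whether the effect of F-53B itself changed between the days was tested as the day 12 difference from DMSO minus the day 8 difference. It passed for 4 of the 9 members, against 16.4% of all genes tested (9.35% higher, 7.02% lower). The difference was 1.18 for DPPA4 (SE 0.13, limma adjusted p = 0.000116) and 0.80 for ZFP42 (SE 0.14, limma adjusted p = 0.0029), which were more elevated at day 12. It was -0.53 for SALL4 (SE 0.11, limma adjusted p = 0.0082) and -0.60 for DNMT3B (SE 0.14, limma adjusted p = 0.014), which were more reduced at day 12. The DNMT3B call was lost without day 8 DMSO replicate 1, day 8 F-53B replicate 2 or day 12 DMSO replicate 1 (adjusted p up to 0.0574). L1TD1, elevated on both days, showed a difference of 0.24 (interval -0.18 to 0.66, limma adjusted p = 0.431). For LIN28A the difference was 0.23 and for LIN28B 0.17, and neither passed. For PFOS 0 of 9 members passed in the limma test, against 1.41% of all genes (0.611% higher, 0.795% lower), and 1 (DNMT3B, -0.32) had an unadjusted p under 0.05.

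The 2 compounds are both sulfonates with fluorinated chains. F-53B carries an ether oxygen and a chlorine atom in the chain, and PFOS carries neither. They were compared at the same dose on the same day, in 2 pairs, each adjusted over all genes tested. At day 8, F-53B stood above PFOS for DPPA4 and L1TD1 and below it for SALL4, 3 of 9 members against 28.3% of all genes (13.3% higher, 15% lower). At day 12 it stood above PFOS for DPPA4, ZFP42, L1TD1 and LIN28A and below it for SALL4, DNMT3B and NANOG, 7 of 9 against 47.9% of all genes (23.9% higher, 24% lower).

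At day 12 the difference between the compounds was 1.24 on the log2 scale for DPPA4 (95% interval 1.05 to 1.44), 1.09 for ZFP42 (0.87 to 1.31) and 1.08 for L1TD1 (0.79 to 1.38). In means this was 32.6 against 13.2 FPKM for DPPA4, 13.8 against 5.98 FPKM for ZFP42 and 8.22 against 3.29 FPKM for L1TD1. The libraries of the compounds did not overlap for any of these 3 genes. Here and elsewhere, overlap describes the genes named, and the share of all genes without overlap is not given. SALL4 differed by -0.65 (interval -0.82 to -0.47) and DNMT3B by -0.52 (interval -0.74 to -0.31). LIN28A differed by 0.32 (interval 0.11 to 0.52, limma adjusted p = 0.0154), a call that was lost when only the libraries compared were fitted, without day 12 F-53B replicate 1 and without day 12 PFOS replicate 2 (adjusted p up to 0.132). NANOG differed by -0.42 (interval -0.76 to -0.08, limma adjusted p = 0.0446). No F-53B library reached 1 FPKM for NANOG, so it passed the filter through DMSO and PFOS libraries, where it was higher. Its call was lost in 6 of 10 alternatives, among them the fit without the filter, equal FPKM totals, and the removal of day 12 F-53B replicate 2 or day 12 PFOS replicate 1 (adjusted p up to 0.261).

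At day 8 the compounds differed by 0.71 for L1TD1 (interval 0.41 to 1.004, limma adjusted p = 0.00382), by -0.35 for SALL4 (interval -0.52 to -0.17, limma adjusted p = 0.00925) and by 0.30 for DPPA4 (interval 0.10 to 0.49, limma adjusted p = 0.0292). The SALL4 call was lost without day 8 F-53B replicate 1 (adjusted p = 0.0696), and the DPPA4 call without either day 8 F-53B replicate or day 8 PFOS replicate 2 (adjusted p up to 0.26). The other members did not pass between the compounds at day 8. For ZFP42 the difference was 0.15, with an interval of -0.07 to 0.36, and for DNMT3B it was -0.24, with an interval of -0.46 to -0.02 (limma adjusted p = 0.0883). LIN28B differed by 0.00 at day 8 (interval -0.19 to 0.18) and by 0.15 at day 12 (interval -0.04 to 0.33). POU5F1 differed by -0.43 (interval -1.0 to 0.14) and by -0.37 (interval -0.94 to 0.20), so differences of up to 1 on the log2 scale are within its error.

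The order of the 6 groups by mean level set the members apart. DPPA4 was highest in day 8 F-53B at 39.4 FPKM and next in day 12 F-53B at 32.6 FPKM, whose libraries overlapped those of day 8 PFOS, as day 8 PFOS overlapped day 8 DMSO. L1TD1 had the same leading pair, 12.1 and 8.22 FPKM, and the second of them overlapped day 8 PFOS. ZFP42 ran from day 8 F-53B at 19.3 FPKM over day 8 PFOS, which it overlapped, to day 12 F-53B at 13.8 FPKM and day 8 DMSO at 12.7 FPKM, and the latter 2 did not overlap. For SALL4 no neighbouring groups overlapped, from day 8 DMSO at 17.1 FPKM down to day 12 F-53B at 5.49 FPKM. For LIN28A and LIN28B all 3 day 8 groups came before all 3 day 12 groups.

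Across the 12 libraries, log2(FPKM + 1) of DPPA4 followed that of ZFP42 with Pearson r = 0.979 and that of L1TD1 with r = 0.935, and ZFP42 followed L1TD1 with r = 0.933. LIN28A followed LIN28B with r = 0.987, and DNMT3B followed SALL4 with r = 0.885, whereas DPPA4 and SALL4 had r = 0.00. These correlations describe 12 libraries that share the 6 groups, so they mostly repeat the group levels. After each group's mean was subtracted, r was 0.29 for DPPA4 and ZFP42, 0.50 for DPPA4 and L1TD1 and 0.66 for ZFP42 and L1TD1. It was -0.78 for LIN28A and LIN28B and -0.13 for DNMT3B and SALL4. The 2 replicates were ordered the same way in 3, 4, 4, 0 and 5 of the 6 groups for these pairs, in that order. For POU5F1 and NANOG, r was 0.713 over the 12 libraries, 0.431 without the 2 farthest ones and 0.69 within groups, with the same replicate order in 4 of 6.

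Genes whose pattern over the 12 libraries was most like each member were taken by the highest Pearson r of log2(FPKM + 1) among 14010 genes. For DPPA4 they were SPIN4 (r = 0.996), SERPINB9 (0.995) and LEPROTL1 (0.992). SERPINB9, a protease inhibitor, had mean levels of 60.8 FPKM with DMSO and 89.6 with F-53B at day 8 and of 16.5 and 63.1 FPKM at day 12. For ZFP42 they were TGFBR3 (0.993), KCNIP1 (0.992) and SLC4A8 (0.991), and for L1TD1 EPB41L5 (0.993), CYFIP1 (0.990) and RBM47 (0.986). LIN28A was most like PLK1 (0.994), a mitotic kinase, TP53I11 (0.990) and GFRA2 (0.990), and LIN28B most like GFRA2 (0.998), a receptor of the GDNF family, SLC5A3 (0.992) and SHISA3 (0.991). SALL4 was most like TRIM71 (0.983), MYCL (0.981) and CD24 (0.980), and DNMT3B most like ZNF331 (0.978), HMGB2 (0.977) and BUB1 (0.969). NANOG was most like WDR31 (0.953), ZNF483 (0.937) and CNR2 (0.934), and POU5F1 most like ZSCAN22 (0.898), TMEM236 (0.876) and SHOX (0.863).

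Other genes tied to the pluripotent state were counted from a list of 38 that leaves out the members, of which 37 had values and 21 were tested. With F-53B, 8 of the 21 were higher and 9 lower at day 8, and 9 were higher and 7 lower at day 12, where 44% and 56.2% of all genes passed. With PFOS, 1 was higher (0 after either rescaling) and 5 were lower at day 8, and 2 were higher and 4 lower at day 12, where 6.77% and 12.3% of all genes passed. The list median with F-53B at day 12 was 0.07 on the log2 scale, beside 0.00 over all genes, so this wider list moved in both directions as the members did. Over time with DMSO, 5 rose and 9 fell, where 37.7% of all genes changed, with a median of -0.22.

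The genes of that list with the smallest adjusted p-values at day 12 also have roles outside pluripotency. PODXL, a cell-surface sialomucin of stem cells that podocytes and mesothelial cells also carry, stood at 264 and 385 FPKM with F-53B and at 32.6 and 33.3 FPKM with DMSO. Its log2 change was 3.24 (SE 0.19, limma adjusted p = 5.73e-07). SFRP2, a secreted modulator of WNT signals, stood at 91.6 and 217 FPKM with F-53B and at 0.12 and 0.37 FPKM with DMSO, a log2 change of 6.84 (SE 0.36, limma adjusted p = 1.07e-06). EPCAM, an epithelial adhesion molecule, was lower, at 9.38 and 6.89 FPKM against 39.9 and 40.4 FPKM, a change of -2.19 (SE 0.17, limma adjusted p = 1.82e-06). LEFTY2, a secreted inhibitor of NODAL, was also lower, at 2.54 and 1.45 FPKM against 13.4 and 12.5 FPKM, a change of -2.24 (SE 0.17, limma adjusted p = 8.83e-07). With PFOS at day 12 each of these genes also passed in the same direction, with smaller changes. Those were 1.10 for PODXL (SE 0.19), 2.72 for SFRP2 (SE 0.36), -0.77 for EPCAM (SE 0.17) and -0.62 for LEFTY2 (SE 0.17). At day 8, GDF3, a TGF-beta family ligand of stem cells, was listed at 0 in both F-53B libraries, at 0.24 and 0.30 FPKM with PFOS and at 2.65 and 4.89 FPKM with DMSO.

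**Figure D3:**
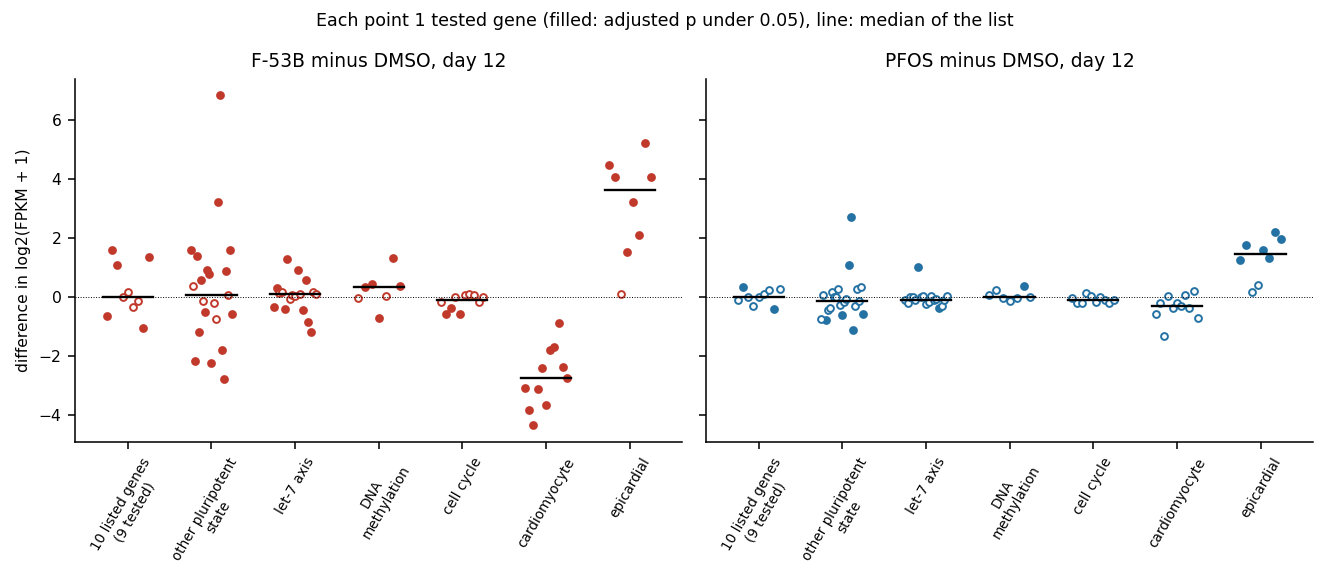
Difference in log2(FPKM + 1) from DMSO at day 12 for F-53B (left) and PFOS (right). Each point is 1 tested gene of the list named on the axis, filled where the adjusted p was under 0.05, and the line is the median of the list. The 9 members and the wider list of the pluripotent state spread to both sides of 0 with F-53B, while the 11 cardiomyocyte markers all lie below 0 and 7 of the 8 epicardial markers passed as higher. Of all genes tested, 28.2% were higher and 28% lower with F-53B.

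Markers of other cell types moved with the treatments beside the members. Over all genes tested, 23.5% were higher and 20.5% lower with F-53B at day 8, and 28.2% and 28% at day 12. With PFOS, 3.69% were higher and 3.08% lower at day 8, and 6.67% and 5.62% at day 12. All 11 cardiomyocyte markers were lower with F-53B than with DMSO at both days. With PFOS 0 of 11 passed in the limma test on either day, and 3 at day 8 and 1 at day 12 had an unadjusted p under 0.05. Of the 8 epicardial and mesothelial markers, 6 were higher with F-53B at day 8 and 7 at day 12, and with PFOS 3 were higher at day 8 and 6 at day 12. Hepatic and foregut endoderm markers, 13 in all, summed to 509 to 717 FPKM in the day 12 DMSO libraries, to 17.8 to 31.9 FPKM with F-53B and to 198 to 281 FPKM with PFOS. Of the 7 endothelial markers tested, 6 were lower with F-53B at each day, and 4 were lower with PFOS at day 8 and 1 at day 12. All 5 mesendoderm markers tested were lower with F-53B at each day, and with PFOS 4 were lower at day 8 and 2 at day 12. However, EOMES, MESP1 and TBX6 among them, and ERG among the endothelial markers, reached 1 FPKM only in DMSO libraries. These genes passed the filter through the vehicle groups, so a lower value with a compound was partly built into their selection. The part of these cell types in the levels of DPPA4, ZFP42, L1TD1, SALL4 and DNMT3B was not tested.

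Germ cells and neural progenitors can also use some of these genes, SOX2 among them. The 8 germ line markers summed to between 1.39 and 3.59 FPKM in every library, and DAZL and TFAP2C were under 0.1 FPKM in all 12. The 11 neural ectoderm markers summed to between 143.8 and 236.7 FPKM, although SOX1, HES5 and SIX3 among them were under 0.1 FPKM in all 12 libraries. Most of that sum came from NES, an intermediate filament gene, at 58.2 to 147 FPKM, and NCAM1, an adhesion molecule, at 50.4 to 74.9 FPKM, both also active outside neural tissue. Of the 6 neural markers tested, 2 were higher and 2 lower with F-53B at day 12, where 56.2% of all genes passed (28.2% higher, 28% lower). With PFOS 3 were higher (2 with equal FPKM totals), where 6.67% of all genes were higher. LHX2, a LIM-homeodomain factor, was higher with F-53B at day 12 by 2.03 on the log2 scale (SE 0.12) and DCX, a microtubule-binding protein of young neurons, by 1.53 (SE 0.13). NES went the other way with F-53B, with a change of -0.97 (SE 0.14), as did SOX3, with -0.64 (SE 0.16). With PFOS at day 12, SOX3 was higher by 1.14 (SE 0.16). Its day 12 levels were 2.46 and 3.89 FPKM with PFOS, 0.88 and 0.86 with DMSO and 0.20 and 0.20 with F-53B. SOX3 reached 1 FPKM in no other group than day 12 PFOS. It thus entered the test only through the group where it was high, so its PFOS call, counted above, was partly built into its selection. The part of the neural markers in the SOX2 values was not tested. Within the list of the pluripotent state, FOXD3, TERT and FGF4 were under 0.1 FPKM in all 12. Cell cycle genes, by contrast, were well detected. Against DMSO, 4 of 10 were higher (6 with equal FPKM totals) and 1 lower with F-53B at day 8, where 44% of all genes passed (23.5% higher, 20.5% lower). At day 12, where 56.2% of all genes passed (28.2% higher, 28% lower), none was higher and 3 were lower. BUB1, a mitotic checkpoint kinase and 1 of those 3, was lower by 0.57 on the log2 scale (SE 0.08) at day 12, and it was also among the genes most like DNMT3B.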

How the data were processed

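RNA of 12 libraries was sequenced on the BGISEQ-500 platform. The authors deposited a table of FPKM values by gene for each library, as named in the file headers. HISAT, Bowtie2, RSEM and GRCh38 patch 11 are named in the submitters' processing notes, and their settings and order are not given in the sources used here. Each table lists 20042 genes, of which 1002 have no value, and 8 to 10 lines that name no gene were dropped. Depth is unknown, since the values are FPKM, so no counting interval can be drawn.

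After log2(FPKM + 1), without rescaling, the 14080 genes that reached 1 FPKM in 2 or more libraries were fitted with limma 3.58.1 in R 4.3.3. The model had a mean per group over all 12 libraries (6 residual degrees of freedom) and robust moderation with a trend, and p-values were 2-sided and adjusted by Benjamini-Hochberg over all genes tested at a threshold of 0.05. It was tested on simulated data with known changes. The 11 comparisons were each compound against DMSO by day, F-53B against PFOS by day, day 12 against day 8 by treatment, and the change of each compound's effect between days. A fold is a ratio of mean FPKM. Intervals are 95% limits of the model and are not corrected for the number of genes. Alternatives were a pseudocount of 0.1, no filter, median-of-ratios scaling, equal FPKM totals, a replicate block, only the libraries compared, and leaving out each library.

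The members and gene lists were chosen with earlier results of these data known. All members were described. From each list at most 4 genes per comparison with the smallest adjusted p were named, plus genes near 0 throughout, and 3 genes of the most similar pattern per tested member, among genes with a mean of at least 1 FPKM in a group. The markers FOXD3, TERT, FGF4, DAZL, TFAP2C, SOX1, HES5 and SIX3 (all under 0.1 FPKM) were named after their values were seen. So were the examples NCAM1, TNNT2, MYH6, CDK1 and AURKB, and EOMES, MESP1, TBX6 and ERG for the way they passed the filter. Some members of the lists are not reported. Gene positions are from GENCODE 29 on GRCh38, and promoter windows are from RefSeq on GRCh38.p14.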

Additional observations from a re-analysis of the deposited data

Results flagged for a closer look

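For 4 members, the effect of F-53B against DMSO differed between day 8 and day 12 by a test of that difference itself in the limma model (Benjamini-Hochberg adjusted over all genes tested). The elevation of DPPA4 was larger at day 12 by 1.18 on the log2 scale (adjusted p = 0.000116), with 4 of 4 F-53B libraries above the DMSO libraries of their day. That of ZFP42 was larger by 0.80 (adjusted p = 0.0029), also in 4 of 4 libraries. The difference was -0.53 for SALL4 (adjusted p = 0.0082), with 4 of 4 F-53B libraries below the DMSO libraries of their day. It was -0.60 for DNMT3B (adjusted p = 0.014), where the 2 day 12 F-53B libraries lay below DMSO and the 2 of day 8 lay within its range. These library positions give the direction on each day and do not measure the difference between days. No group had more than 2 libraries, so single libraries could not be screened as outliers.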

How the results depend on the processing

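Of 47 calls on members over the 11 comparisons, 37 held in every alternative run. Over 486 refits, 451 kept the call, 35 lost it and none changed sign. Among the 52 member values without a call, 46 of 574 refits changed sign and 7 gained a call. The rescalings moved the median of all genes by less than 0.1 on the log2 scale. A library left alone in its group is assumed to vary like the other groups.

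Fitting only the libraries compared gave 455 genes and 0 members for PFOS at day 8, against 953 and 1. With equal FPKM totals the sign turned, without a call, for LIN28B (0.055) and DNMT3B (0.028) with F-53B at day 8, for POU5F1 (-0.026) and NANOG (-0.014) over time with F-53B, and for LIN28B in the change of the PFOS effect (-0.012). Between F-53B and PFOS at day 8, LIN28B was 0.025 with median-of-ratios scaling and 0.063 with equal totals. For PFOS at day 12, LIN28B was -0.0042 and -0.020, and L1TD1 was -0.0027 and -0.017, in that order.

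Leaving out each library gave 167 to 957 genes for PFOS at day 8 (lowest without day 8 DMSO replicate 2) and 543 to 2021 of 1730 for PFOS at day 12 (lowest without day 12 DMSO replicate 2). It gave 1189 to 3719 of 3991 for F-53B against PFOS at day 8 (lowest without day 8 PFOS replicate 2), 3299 to 3911 of 5308 over time with DMSO (lowest without day 12 DMSO replicate 1) and 2479 to 3729 of 4227 over time with F-53B (lowest without day 8 F-53B replicate 2). For the change of the F-53B effect it gave 1299 to 2333 of 2306 (lowest without day 12 DMSO replicate 2), and for that of the PFOS effect 41 to 339 of 198 (lowest without day 12 DMSO replicate 1). Members called ranged from 0 to 1 for PFOS at day 8, 0 to 2 for PFOS at day 12, and 1 to 3 for F-53B against PFOS at day 8.

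Log2 changes whose sign turned when a library was left out, none of them a call, ranged as follows. With F-53B at day 8, LIN28B ranged from -0.035 to 0.013 and DNMT3B from -0.128 to 0.052. With PFOS at day 8, POU5F1 ranged from -0.15 to 0.32, LIN28A from -0.22 to 0.027 and LIN28B from -0.033 to 0.015. With F-53B at day 12, POU5F1 ranged from -0.46 to 0.21 and LIN28A from -0.098 to 0.12. With PFOS at day 12, POU5F1 ranged from -0.096 to 0.57, NANOG from -0.055 to 0.23, LIN28B from -0.052 to 0.079 and L1TD1 from -0.046 to 0.072. LIN28B ranged from -0.015 to 0.012 between the compounds at day 8. Over time, POU5F1 ranged from -0.54 to 0.13 with DMSO, -0.12 to 0.15 with F-53B and -0.36 to 0.26 with PFOS, and NANOG from -0.093 to 0.12 with F-53B and -0.10 to 0.18 with PFOS. In the change of the F-53B effect POU5F1 ranged from -0.12 to 0.55, and in that of the PFOS effect POU5F1 ranged from -0.18 to 0.49, NANOG from -0.28 to 0.0092 and LIN28B from -0.043 to 0.089. The cause of these changes was not tested.

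Whether the replicate numbers 1 and 2 pair the libraries is not stated in the labels. The deviations of same-numbered libraries correlated over 0.1 in 3 of 15 pairs of groups (range -0.378 to 0.186). Such values cannot decide it, since paired libraries with little deviation in common would look the same. With the replicate number as a block, 6 of 9 members instead of 7 were called for F-53B against PFOS at day 12 (NANOG lost) and 6 instead of 7 over time with F-53B (DPPA4 lost), and the other 9 member counts were the same.

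Levels near 0 limit SOX2 and NANOG, and with 2 libraries a group the spread rests on few samples.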
